A study of Homo sapiens with 2 samples.

Results

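The GATA family comprises 6 genes in the human genome, GATA1 to GATA6, and the loci of all 6 were examined here. A locus was the gene body in GENCODE release 44 (hg19, GRCh37 coordinates) plus 50 kb on each side, and a peak belonged to it when its midpoint lay inside. The data are peak lists from CUT&Tag, an assay in which an antibody guides a Tn5 transposase to chromatin so that the DNA near the bound protein is cut, tagged and sequenced. HCT116 is a human colorectal carcinoma line with low endogenous TRPS1, labelled epithelial, and the cells were made by lentiviral transduction to express Flag-tagged TRPS1 stably. TRPS1-WT cells carried the wild-type protein and TRPS1-MT cells the R544Q mutant, and both were profiled with the same Flag antibody in 1 library each. The protein was therefore ectopic in both groups, and no control library is named in the sources used here. The 6 loci spanned 779.852 kb and held 60 of the 173304 TRPS1-WT peaks and 119 of the 325573 TRPS1-MT peaks on the standard chromosomes. With 1 library per condition no test between conditions was possible. The values compare 2 libraries, and each 95% interval reflects the counting of tags, peaks or genes and nothing else.

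GATA factors are zinc-finger proteins that bind DNA at the sequence from which they take their name, and they direct the formation of whole cell lineages. GATA1, GATA2 and GATA3 are known for their roles in blood cells, GATA1 in red cells and megakaryocytes, GATA2 in stem and progenitor cells and GATA3 in T cells and also in breast epithelium. GATA4, GATA5 and GATA6 act in the heart and in the endoderm, which gives rise to the gut lining, and GATA6 is expressed in the colon epithelium. TRPS1 has a single GATA-type finger of its own and is known as a repressor that occupies GATA sequences. GATA4 and GATA5 are known to be silenced by promoter methylation in many colorectal cancers. Neither methylation nor RNA was analysed here.

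The sequences on which the comparisons below turn are given here from the GRCh37 genome, each 100 bp on both sides of a summit and read along the strand of the GATA gene. Capitals mark every match on either strand to the GATA sequence searched, which is GATA with A or T before it and A or G after it. The first set covers summits with such matches, at GATA1 intron 1, upstream of GATA6 and just past the 3′ end of GATA2. A match describes the letters and does not show that the site was bound by TRPS1.
GATA1 intron 1, TRPS1-MT summit, chrX:48646290-48646490, plus strand: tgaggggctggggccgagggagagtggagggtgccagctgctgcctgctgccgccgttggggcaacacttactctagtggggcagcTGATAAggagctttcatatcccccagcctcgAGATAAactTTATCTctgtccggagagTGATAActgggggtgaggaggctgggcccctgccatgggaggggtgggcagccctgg
GATA6 upstream peak, TRPS1-WT summit, chr18:19748428-19748628, plus strand: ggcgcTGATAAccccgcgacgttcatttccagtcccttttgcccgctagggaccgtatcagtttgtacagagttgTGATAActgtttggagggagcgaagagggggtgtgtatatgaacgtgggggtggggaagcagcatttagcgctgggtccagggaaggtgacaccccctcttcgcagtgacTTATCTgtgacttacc
GATA2 3′ end, TRPS1-WT summit, chr3:128197443-128197643, minus strand: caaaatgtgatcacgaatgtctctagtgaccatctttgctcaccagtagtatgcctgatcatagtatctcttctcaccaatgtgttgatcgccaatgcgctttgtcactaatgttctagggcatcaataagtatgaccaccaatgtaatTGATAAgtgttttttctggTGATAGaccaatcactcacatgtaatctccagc

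The GATA1 window held 4 matches, the GATA6 window 3 and the GATA2 window 2. The strongest promoter peak of GATA6 in the TRPS1-WT list and of GATA2 in the TRPS1-MT list had no match near their summits, as the next windows show. Of these next windows, that of GATA6 held 19 CpG dinucleotides and that of GATA2 11. In the TRPS1-MT list the summit of the GATA6 start-site peak lay 483 bp further on, and its window, not printed, held 1 match.
GATA6 start site, TRPS1-WT summit, chr18:19749410-19749610, plus strand: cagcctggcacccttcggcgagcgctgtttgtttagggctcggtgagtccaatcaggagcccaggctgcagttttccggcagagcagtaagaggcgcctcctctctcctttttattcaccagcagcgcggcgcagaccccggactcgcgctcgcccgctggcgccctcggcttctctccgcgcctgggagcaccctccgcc
GATA2 intron 1, TRPS1-MT summit, chr3:128207631-128207831, minus strand: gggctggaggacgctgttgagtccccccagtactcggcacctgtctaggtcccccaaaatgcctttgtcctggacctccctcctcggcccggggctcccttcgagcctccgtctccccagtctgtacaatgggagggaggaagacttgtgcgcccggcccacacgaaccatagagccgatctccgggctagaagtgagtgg

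The only shared peak of the GATA5 locus lay upstream of the gene, with its TRPS1-WT summit at −13691 bp of the transcription start site (TSS). Its TRPS1-WT summit window held an AP-1 sequence, TGAGTCA, near the edge of the window, which is marked in capitals. That sequence lay outside the called peak in both lists, which ended at 61064812 in the TRPS1-WT and 61064723 in the TRPS1-MT list. The TRPS1-MT summit window of the same peak held none.
GATA5 upstream peak, TRPS1-WT summit, chr20:61064642-61064842, minus strand: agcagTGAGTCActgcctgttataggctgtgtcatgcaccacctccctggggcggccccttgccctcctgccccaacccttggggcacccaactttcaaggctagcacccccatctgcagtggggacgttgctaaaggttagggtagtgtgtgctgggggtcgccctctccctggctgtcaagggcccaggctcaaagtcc

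Peak density in the 6 loci was a little above the genome in both libraries. TRPS1-WT cells had 60 peaks (95% Poisson interval 45.8 to 77.2), or 7.69 per 100 kb against 6.06 genome-wide. TRPS1-MT cells had 119 (98.6 to 142), or 15.3 against 11.4. The median window of protein-coding genes held 8.21 and 14.8 per 100 kb. Against that median the loci were lower in the TRPS1-WT library and only slightly higher in the TRPS1-MT library. GATA2 alone held 30 of the 119 TRPS1-MT peaks. The ratio of TRPS1-MT to TRPS1-WT peaks was 1.98 in the 6 loci and 1.88 in the whole lists. Peaks were of ordinary strength. The number of sequenced tags at the summit, recovered from the fold and −log10 p of each peak, had a median of 15 in the loci and 14 in the list of TRPS1-WT cells, and of 18 and 17 in the TRPS1-MT library. Of the locus peaks, 7 of 60 (11.7%) in the TRPS1-WT library and 12 of 119 (10.1%) in the TRPS1-MT library belonged to the strongest 10% of their list.

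Tags of the libraries are not on the same scale. The lowest background that the caller set was 1.104 tags in the TRPS1-WT and 1.77 in the TRPS1-MT library, a ratio of 1.60, while the narrowest peaks were 168 and 280 bp wide. If these widths are the lengths over which tags were counted, the background was 6.57 and 6.31 tags per kb. Tags of shared peaks are therefore read below against the median ratio over all pairs of overlapping peaks, which was 1.33.

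**Figure D1:**
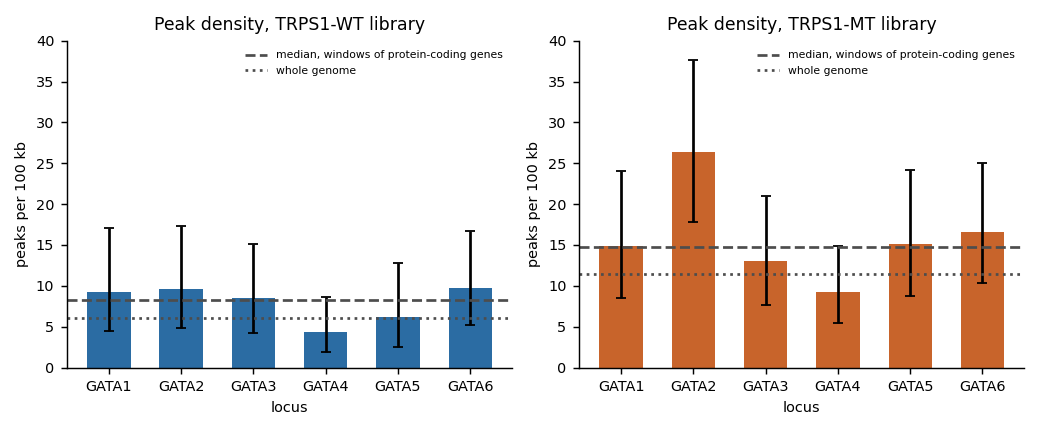
Peaks per 100 kb (y axis) in each GATA locus (x axis) in the TRPS1-WT library (left) and the TRPS1-MT library (right). Bars are the density in the gene body plus 50 kb on each side, error bars are 95% Poisson intervals (counting error only), and lines show the genome (dotted) and the median window of protein-coding genes (dashed). GATA2 stands out in the TRPS1-MT library at 26.4 per 100 kb.

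The locus that stood furthest from other genes was GATA2 in the TRPS1-MT library. It held 11 peaks (5.49 to 19.7) in the TRPS1-WT library and 30 (20.2 to 42.8) in the TRPS1-MT library, which is 9.67 and 26.4 per 100 kb. Among the windows of 20163 protein-coding genes, drawn in the same way, its density exceeded 65.9% in the TRPS1-WT library and 99.9% in the TRPS1-MT library. Chromosome 3 as a whole had 6.37 and 13.1 peaks per 100 kb. The TRPS1-MT to TRPS1-WT ratio of 2.73 was above that of 92.3% of the 17941 genes with at least 5 TRPS1-WT peaks, whose median was 1.74. With only as many of the strongest TRPS1-MT peaks as the TRPS1-WT list held, GATA2 kept 19 peaks in the TRPS1-MT library. It then stood above 99.1% of genes, a rank that was added after the data were seen. The local background was raised there in the TRPS1-MT library, with a median of 2.88 tags under the 30 peaks (1.77 over the list). Under the 11 TRPS1-WT peaks it was 1.13, beside 1.10 over the list. The part of the background in the count was not tested.

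The remaining loci lay within the range of other genes. GATA1 had 10 peaks (4.80 to 18.4) in the TRPS1-WT and 16 (9.15 to 26.0) in the TRPS1-MT library, above 61.8% and 50.5% of protein-coding windows. GATA3 had 11 and 17 peaks (9.90 to 27.2 for TRPS1-MT), above 52.9% and 36.6%. GATA6 had 13 (6.92 to 22.2) and 22 (13.8 to 33.3), above 67.0% and 65.0%. GATA4, the longest of these windows at 183.044 kb, had the lowest density of the 6 in both libraries, 8 peaks (3.45 to 15.8) and 17, or 4.37 and 9.29 per 100 kb, above 15.8% and 16.3% of windows. GATA5 had 7 (2.81 to 14.4) and 17 peaks, 6.22 and 15.1 per 100 kb, above 29.7% and 52.8%. The intervals of these 5 loci overlapped one another within each library. GATA1 lies on the X chromosome, which had only 2.86 and 5.84 peaks per 100 kb, so that its locus was denser than its own chromosome, at 9.28 and 14.8 per 100 kb.

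The higher count at GATA5 in the TRPS1-MT library was not kept at a stricter threshold. Counting only peaks with −log10 p of at least 10 left 7 of 7 peaks in the TRPS1-WT and 5 of 17 in the TRPS1-MT library, which turns the direction, beside 57.2% and 58.8% of the whole lists. All 17 TRPS1-MT peaks there had the minimum width of 280 bp, as did 82.2% of the list, and their median was 12 tags, against 16 tags in the TRPS1-WT library. At GATA2, 9 of 11 TRPS1-WT peaks and 20 of 30 TRPS1-MT peaks passed that threshold.

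**Figure D2:**
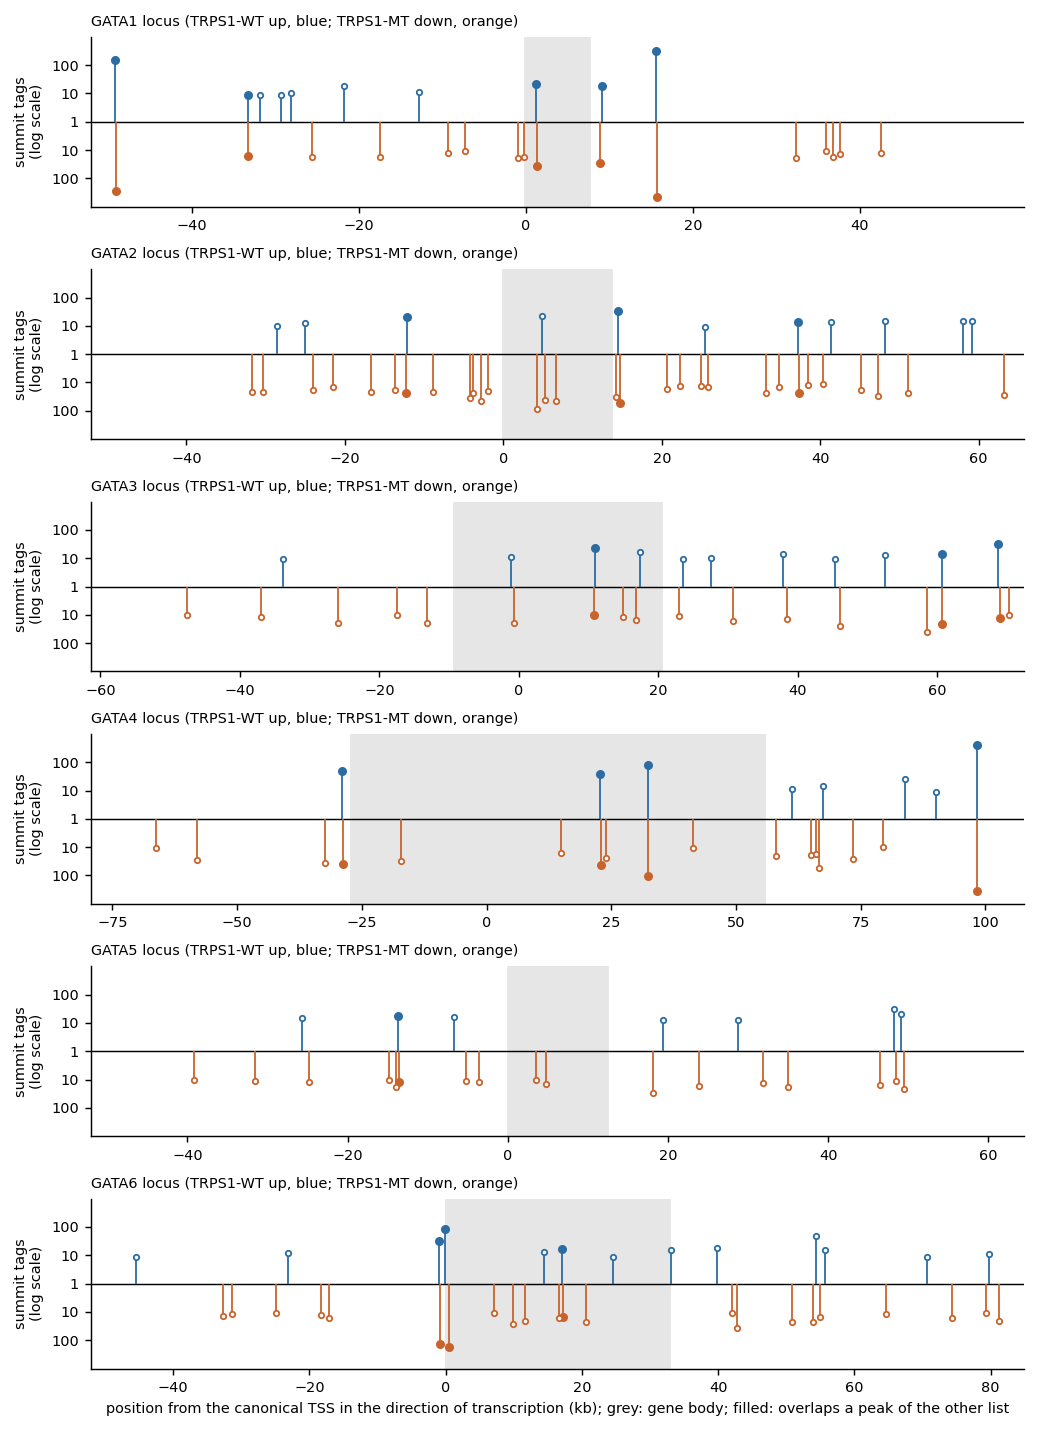
Summit tags (y axis, log scale) against position from the canonical TSS in kb along transcription (x axis) for all 60 TRPS1-WT peaks (up, blue) and 119 TRPS1-MT peaks (down, orange) of the 6 loci. Grey marks the gene body and filled circles the peaks that overlap a peak of the other list. The tallest lines are the HDAC6 promoter in the GATA1 locus (322 and 447 tags) and the FDFT1 promoter in the GATA4 locus (397 and 360 tags).

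Most locus peaks lay outside the GATA genes. In the TRPS1-WT library 33 of 60 lay between genes, 5 at a promoter of the GATA gene itself, 8 in its introns, 7 at promoters of protein-coding neighbours, 2 at promoters of other genes and 5 inside another gene. In the TRPS1-MT library 54 of 119 lay between genes, 8 at an own promoter, 15 in own introns, 1 elsewhere in the GATA gene, 12 and 8 at promoters of neighbours and 21 inside another gene. A promoter peak had its midpoint between −2 kb and +1 kb of an annotated TSS.

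In the TRPS1-WT list, 4 of the 6 GATA genes had a peak at a promoter (GATA2, GATA3, GATA4 and GATA6), beside 67.4% of all protein-coding genes. In the TRPS1-MT list 5 had one, these 4 and GATA1, beside 76.4%. The 4 genes with one in both lists stand beside 62.6% of protein-coding genes. GATA5 had none in either list. These counts are near the background shares, and nothing about the members is read from them. At the canonical TSS alone, GATA3 and GATA6 were marked in the TRPS1-WT list (55.4% of protein-coding genes) and GATA1, GATA3 and GATA6 in the TRPS1-MT list (63.6%).

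**Figure D3:**
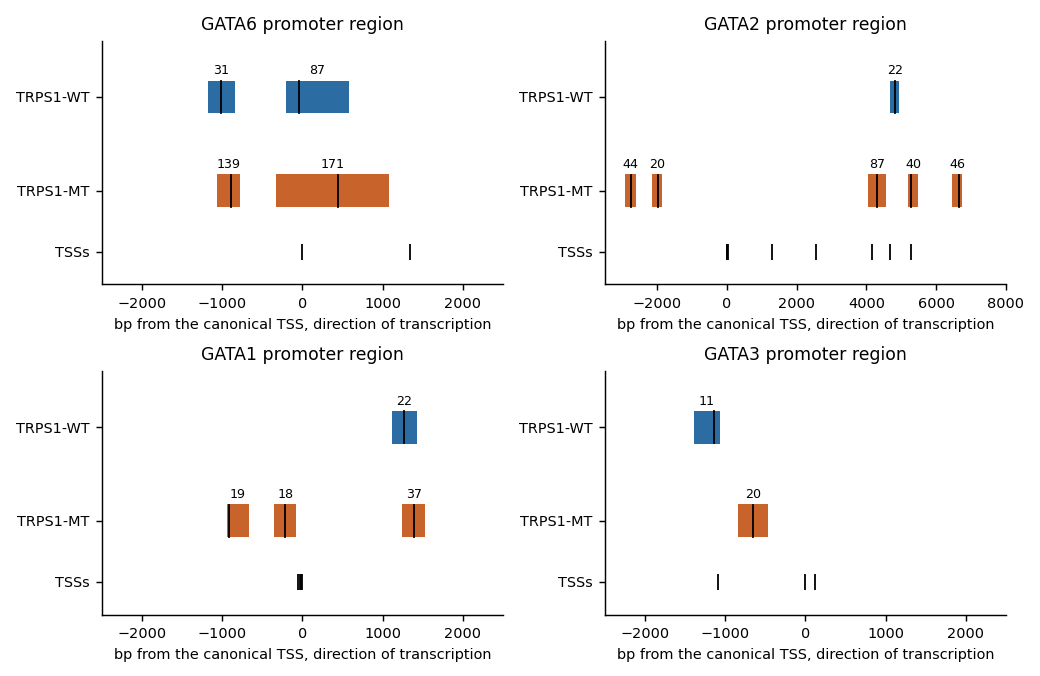
Peaks (bars) near the canonical TSS of GATA6, GATA2, GATA1 and GATA3, with the x axis in bp from that TSS along transcription, TRPS1-WT in blue above TRPS1-MT in orange. Black lines in the bars are summits, numbers are summit tags and ticks on the lowest line are annotated TSSs. Both libraries have peaks at the GATA6 start, while those of GATA2 lie at alternative start sites in intron 1.

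GATA6, the member with the most promoter tags in both libraries, lies at 19749550 to 19782491 of chromosome 18 on the plus strand. A peak over its TSS had 87 tags in the TRPS1-WT library (19749343 to 19750127, summit at −40 bp) and 171 in the TRPS1-MT library (19749222 to 19750630, summit at +443 bp, in intron 1). A second peak upstream had 31 tags in the TRPS1-WT library (19748376 to 19748704, summit at −1022 bp) and 139 in the TRPS1-MT library (19748480 to 19748776, summit at −891 bp). Both libraries thus had the same pair of peaks, also inside GATA6-AS1, an antisense gene that begins at the same promoter, so the signal cannot be assigned to GATA6 alone. In tags, its strongest promoter peak exceeded that of 77.2% of genes with one in the TRPS1-WT library and 86.8% in the TRPS1-MT library. By fold over background, GATA4 led the members in the TRPS1-WT library (20.9, beside 10.4 for GATA6). GATA2 led in the TRPS1-MT library (11.9, beside 9.91 for GATA6).

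The upstream GATA6 peak had the largest ratio of the 19 shared pairs, 4.48 (3.02 to 6.85), above 97.8% of the 52620 overlapping pairs of the lists. The TSS peak had a ratio of 1.97 (1.51 to 2.57), above 75.5% of pairs. Its background was 7.46 tags in the TRPS1-WT and 16.4 in the TRPS1-MT library, above 94.9% and 98.4% of peaks. The background under the upstream peak was 7.71 tags in the TRPS1-WT and 17.1 in the TRPS1-MT library, above 95.1% and 98.4% of peaks, and the fold over background was 3.67 and 7.76. The TRPS1-WT summit window of this peak, printed above, held 3 GATA matches, and the TRPS1-MT window, 131 bp further on, held 1 of the 3.

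Within the GATA6 gene a shared peak lay in intron 6, with 17 and 15 tags. Of the unshared peaks the strongest in the TRPS1-WT library had 47 tags at 19803742, inside the noncoding gene ENSG00000264825 at +54334 bp of the TSS. A TRPS1-MT peak of 22 tags (19803291 to 19803716) lay beside it without overlap, with summits 380 bp apart. The next unshared TRPS1-WT peak had 18 tags between genes at +39761 bp. In the TRPS1-MT library a peak of 38 tags at 19792038 lay at the promoter of that noncoding gene. TRPS1-MT cells also had a peak of 26 tags in intron 3 at the small RNA gene RNU6-702P, where no TRPS1-WT peak was called.

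GATA4, the cardiac and endodermal member at 11534468 to 11617511 of chromosome 8, had no peak near its canonical TSS at 11561711. Its promoter peaks lay far upstream, at −29064 and −28828 bp, in the window of an alternative TSS at 11534468. They had 50 tags in the TRPS1-WT library (11532525 to 11532754, summit at −1821 bp of that TSS) and 38 in the TRPS1-MT library (11532416 to 11533096), a ratio of 0.76 (0.485 to 1.18). Both fall outside a window of 1 kb upstream.

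GATA4 intron 2 held 2 shared peaks whose summits nearly coincided. One had 37 tags in the TRPS1-WT list, at +22812 bp of the canonical TSS, and 41 in the TRPS1-MT list, with summits 29 bp apart and a ratio of 1.11 (0.693 to 1.78). The other had 83 tags, at +32412 bp, and 103, with summits 49 bp apart and a ratio of 1.24 (0.920 to 1.68). The second exceeded 95.7% of TRPS1-WT and 97.3% of TRPS1-MT peaks. Both intervals include the median ratio of all pairs, 1.33, while that of the promoter pair lies below it. The strongest pair of the window, at the promoter of FDFT1, the squalene synthase gene, had 397 and 360 tags, a ratio of 0.907 (0.784 to 1.05) above 22.9% of pairs. The largest unshared peak in the TRPS1-MT library, 55 tags at 11628219, lay in NEIL2, a DNA glycosylase gene. The largest in the TRPS1-WT library had 25 tags, at the promoter of the pseudogene SUB1P1.

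GATA5, at 61038553 to 61051051 of chromosome 20 on the minus strand, was the member with no promoter peak in either list. The TRPS1-WT summit nearest its only annotated TSS had 16 tags at −6676 bp, and none lay within the gene. In the TRPS1-MT library the nearest was at +3577 bp with 10 tags, and intron 3 held 2 peaks of 10 and 14 tags. The single shared peak, at −13691 bp, had 17 and 12 tags (ratio 0.706, 0.308 to 1.57). The strongest peaks of the locus lay elsewhere. In the TRPS1-WT library these were 31 and 21 tags at the promoter of RBBP8NL and ENSG00000233017, and in the TRPS1-MT library 29 tags at +18096 bp and 21 tags at the same promoter. TRPS1-MT peaks of 19 tags followed at +34970 bp, inside ENSG00000233017, and at −13937 bp, between genes.

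GATA2, at 128198270 to 128212044 of chromosome 3 on the minus strand, carried its promoter peaks in intron 1. The TRPS1-WT peak had 22 tags (128207110 to 128207358), with its summit 154 bp past an alternative TSS at 128207373. TRPS1-MT cells had a peak of 87 tags (128207471 to 128208004), above 95.8% of the list and 146 bp past another alternative TSS, and one of 40 tags (128206561 to 128206840), and neither overlapped the TRPS1-WT peak. The background under them was 1.73 tags in the TRPS1-WT and 6.38 and 7.25 in the TRPS1-MT library. The windows also belong to GATA2-AS1, the antisense neighbour. In the TRPS1-MT library a peak of 20 tags, at −1981 bp of the canonical TSS, fell just outside the promoter window, because its midpoint lay beyond the 2 kb limit. One of 44 tags lay further upstream, at −2758 bp.

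Further TRPS1-MT peaks around GATA2 lay on both sides, 12 upstream, 3 in the gene and 15 downstream, against 3, 1 and 7 in the TRPS1-WT library. One of 46 tags was in intron 2, at +6661 bp of the canonical TSS. Just beyond the 3′ end a shared peak had 33 tags in the TRPS1-WT (128197388 to 128197626) and 55 in the TRPS1-MT library (128197182 to 128197462). The ratio was 1.67 (1.06 to 2.65). These peaks overlapped by only 75 bp and their summits lay 281 bp apart, so the tags were counted at different positions. Each summit window held 2 GATA matches, but the windows did not meet and the matches were different sequences. The other shared peaks had 14 and 23 tags (TRPS1-WT summit at +37155 bp) and 20 and 24 tags (−12124 bp).

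GATA2 intron 4 contains a sequence known for its part in blood cells, in which an E-box and a GATA site lie 8 bases apart. Searching the 6 loci for CATCTG, 8 bases and AGATAA found it once, on the minus strand at chr3:128202154-128202173, 9885 bp past the TSS. The match is shown because this arrangement is a well-known regulatory site of GATA2.
GATA2 intron 4 composite: CATCTGCAGCCTGAAGATAA
No peak of either list lay there. The nearest TRPS1-WT peak (33 tags) was 4528 bp away and the nearest TRPS1-MT peak (46 tags) 3130 bp. Over all summit windows the composite was found in 20 of 173304 TRPS1-WT peaks (0.0115%) and 55 of 325573 TRPS1-MT peaks (0.0169%).

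GATA1, at 48644948 to 48652718 of the X chromosome, had its own promoter peaks in the TRPS1-MT library alone. They had 19 tags at −918 bp and 18 at −216 bp of the canonical TSS, and ranked above 56.7% and 52.2% of the list. In tags the stronger exceeded only 15.4% of the strongest promoter peaks of other genes. Intron 1 held a shared peak of 22 tags in the TRPS1-WT (48646111 to 48646422) and 37 in the TRPS1-MT library (48646245 to 48646524), a ratio of 1.68 (0.966 to 2.99). Its TRPS1-MT window, printed above, held 4 GATA matches and its TRPS1-WT window, 123 bp away, held 1. The other shared peaks near the gene had 18 and 28 tags (TRPS1-WT summit at +9077 bp) and 9 and 16 tags (−33288 bp).

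The strong peaks of the GATA1 locus belonged to its neighbours. The promoter of HDAC6, a cytoplasmic deacetylase gene, had 322 and 447 tags, a ratio of 1.39 (1.20 to 1.61). That of the noncoding gene ENSG00000232828, just inside the window, had 150 and 281 tags (1.87, 1.53 to 2.30). GLOD5 had a promoter peak of 18 tags in the TRPS1-WT and of 17 in the TRPS1-MT library, at different sites.

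GATA3, at 8087341 to 8117161 of chromosome 10, had weak promoter peaks that did not overlap. The TRPS1-WT peak had 11 tags (8095264 to 8095581, summit at −1140 bp of the canonical TSS) and the TRPS1-MT peak 20 (8095812 to 8096190, −650 bp). They exceeded only 5.04% and 17.2% of the strongest promoter peaks of other genes, and both lay also at GATA3-AS1. GATA3 held the lowest ratios of the shared pairs. The peak in intron 4 had 22 and 10 tags, a ratio of 0.455 (0.192 to 1.0003), above 2.85% of all pairs. A peak downstream of the gene had 32 and 13 tags (0.406, 0.196 to 0.796), above 1.84%. The peaks of these pairs overlapped by only 72 and 94 bp. Their summits lay 207 and 299 bp apart, so the tags were counted at different positions. The TRPS1-WT summit window of the downstream peak held 18 GATA matches, most of them in a run of CTAT repeats, and its TRPS1-MT window held 0. The remaining shared peak had 14 and 21 tags. The strongest unshared TRPS1-WT peak had 16 tags and lay in intron 5. The strongest TRPS1-MT peaks were unshared, with 39 tags at +58576 bp and 24 tags at +46077 bp. One of 20 tags, as many as at the promoter, lay upstream at −25923 bp.

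**Figure D4:**
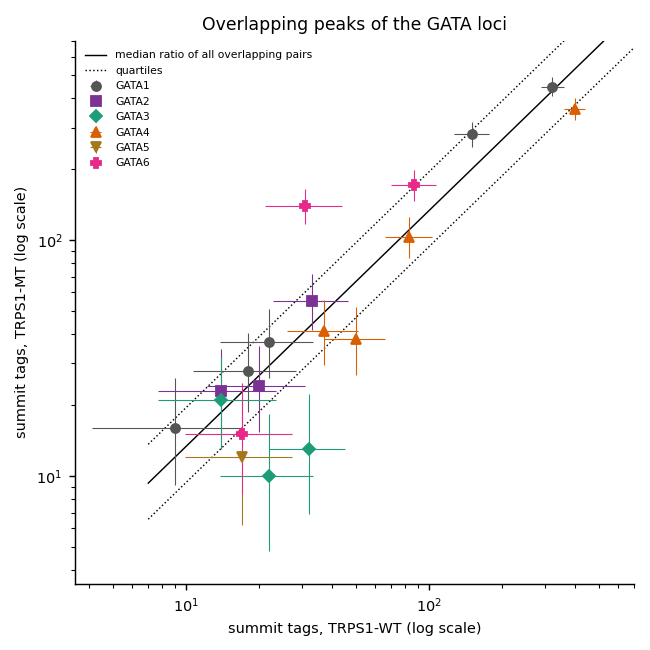
Summit tags in the TRPS1-MT library (y axis, log scale) against the TRPS1-WT library (x axis, log scale) for the 19 pairs of overlapping peaks, coloured by locus. Bars are 95% Poisson intervals, the line is the median ratio of all overlapping pairs (1.33) and dotted lines are its quartiles (0.938 and 1.95). The upstream GATA6 pair (31 and 139 tags) lies above the quartiles and the GATA3 pairs of 22 and 10 and of 32 and 13 tags lie below.

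Across the 6 loci 19 TRPS1-WT peaks overlapped 19 TRPS1-MT peaks. This was 31.7% of the TRPS1-WT peaks (20.3 to 45.0) beside 30.4% of the whole list, and 16.0% of the TRPS1-MT peaks (9.90 to 23.8) beside 15.8%. By locus there were 5 at GATA1, 4 at GATA4, 3 each at GATA2, GATA3 and GATA6, and 1 at GATA5. The median ratio of tags was 1.39 (quartiles 0.895 and 1.67) beside 1.33 (0.938 and 1.95) in all pairs, and 10 of 19 lay above the median of all pairs. More tags in the TRPS1-MT library were found in 13 of 19, beside 70.1% of all pairs, and 11 lay within the quartiles of all pairs. The shared peaks were thus close to the background both in number and in ratio. Summits lay 20 to 483 bp apart, with a median of 131 bp.

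GATA sequences were somewhat less frequent at the summits of these loci than over the lists, with intervals that include the share of the list. A match lay within 100 bp of the summit in 18 of 60 TRPS1-WT peaks, 30.0% (18.8 to 43.2) beside 38.7% of the list, and in 37 of 119 TRPS1-MT peaks, 31.1% (22.9 to 40.2) beside 38.1%. In windows centred 1000 bp away from the same summits the shares were 20.8% and 27.3%, so the sign of the difference depends on the background. The locus windows were richer in G and C, with a median of 51.2% beside 43.8% for the list in the TRPS1-WT library and 51.7% beside 43.3% in the TRPS1-MT library, and the part of base composition was not tested. By locus, TRPS1-MT peaks with a match numbered 9 at GATA4, 8 at GATA2, 8 at GATA6, 6 at GATA3, 5 at GATA1 and 1 at GATA5. The TRPS1-WT numbers were 1, 4, 4, 7, 1 and 1 in the same order.

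AP-1 sequences, TGACTCA or TGAGTCA, are the sites of the FOS and JUN factors. They were found in 4 of 60 TRPS1-WT windows, 6.67% (1.85 to 16.2) beside 9.87% of the list, and in 6 of 119 TRPS1-MT windows, 5.04% (1.87 to 10.7) beside 5.74%.

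Genes that work with the GATA factors were counted in the same way, and a promoter peak does not show expression. Among 12 cofactors and blood partners, the TRPS1-WT list marked 8 promoters and the TRPS1-MT list 9, with 7 in common. These counts are near the shares of all protein-coding genes (67.4%, 76.4% and 62.6%), and nothing is read from them. LDB1, which bridges GATA complexes, had 146 and 162 tags. RUNX1, a blood factor, had 125 and 110. GFI1B, a repressor in red cells, had 29 and 111, in peaks that did not overlap. ZFPM1, the FOG1 cofactor of GATA1, was marked by the TRPS1-WT list alone (75 tags), and TAL1 and LYL1 by the TRPS1-MT list alone (19 and 24 tags). KLF1 and ERG had none.

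Among 14 endoderm and heart partners, the TRPS1-WT list marked 7 promoters and the TRPS1-MT list 12, which included all 7. The corresponding shares of protein-coding genes are 67.4%, 76.4% and 62.6%, and with 14 genes the counts are too few to set the list apart. MEF2C, a muscle factor, had 287 and 338 tags and KLF5, a factor of intestinal crypts, 189 and 169. FOXA2, HNF4A, EOMES and TBX5 were among those marked by the TRPS1-MT list alone, with 21 to 30 tags. SOX17 and HAND2 had none. Of the other genes with a GATA-type finger, all 9 were marked by both lists, beside 62.6% of protein-coding genes, including MTA2 (257 and 202 tags) and RERE (214 and 262), subunits or partners of deacetylase complexes. TRPS1 itself had 78 and 233 tags at its own promoter, above 94.3% of the TRPS1-WT and 99.1% of the TRPS1-MT list. These tags are not on the same scale.

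Each GATA gene was set beside the protein-coding genes most like it in 4 values, the peaks in the window and the tags of the strongest promoter peak in both libraries, each as log2 of 1 plus the value. GATA1 was closest to CA1 (distance 0.0825) and WFDC2 (0.111), and GATA3 to PDE6B (0.139) and GPM6B (0.162). GATA4 was closest to POGLUT2 (0.0861) and ZSCAN29 (0.107), and GATA6 to SON (0.154) and CHST14 (0.189). GATA2 had the most distant neighbours, ENSG00000283765 (0.264) and CPSF3 (0.286). GATA5, with 0 promoter tags in both libraries, shared all 4 values with 11 genes, ARHGEF25 among them.

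As a check of the labelled cell type, both lists marked the promoters of 4 of 5 epithelial marker genes, with KRT8 at 525 and 964 tags and KRT18 without one. The TRPS1-WT list also marked 3 of 5 leukocyte, 3 of 5 fibroblast and 3 of 4 matched endothelial genes, and the TRPS1-MT list 2, 3 and 2. With 67.4% and 76.4% of all protein-coding genes marked, these short lists do not separate the cell types. Promoter peaks in these lists do not by themselves identify a cell type.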

How the data were processed

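Flag CUT&Tag libraries of TRPS1-WT and TRPS1-MT HCT116 cells, 1 of each, were available as peak lists. Reads were cleaned and aligned to hg19 by the authors with Bowtie 0.12.8, and MACS was run on each library (the submitters' processing notes also name HOMER). The named MACS release precedes MACS2, yet the deposited layout is that of MACS2. The labels list more than 1 build, and no peak extended past the GRCh37 chromosome ends. The deposited lists give a fold (ratio of summit pileup to local background), −log10 p, −log10 q (p-value and q-value of the authors' caller, smallest −log10 q 4.0006 for TRPS1-WT and 4.0005 for TRPS1-MT), a score and the summit offset.

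Tags at each summit were recovered from the deposited fold and −log10 p under the Poisson model of MACS2, with a tolerance of 0.01 in −log10 p. This left 3 TRPS1-WT and 2 TRPS1-MT peaks without a value, and 100% of tags in 20000 simulated peaks were recovered. Overlaps were right in 100% of 5000 simulated cases and planted GATA sequences were found in 100% of 2000 windows. Total read depth is not given in the lists, so the tags recovered at each summit set the precision. Peaks overlapping by at least 1 bp were shared. Promoters were −2 kb to +1 kb of any TSS of GENCODE release 44 mapped to GRCh37, and 105 TRPS1-WT and 142 TRPS1-MT peaks off the standard chromosomes were left out. Intervals were exact Poisson or exact binomial (Clopper-Pearson) at the 95% level, and those of tag ratios were exact binomial.

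The members and lists were chosen with earlier results of these data known. Named were GATA1 to GATA6, genes with a promoter peak among the 5 strongest of a locus, per partner list the 2 genes with most tags in each library and those with no peak, and per GATA gene the 2 most alike genes. Peaks named were the 3 strongest per locus and library, promoter peaks of the GATA genes and shared peaks. Partner genes marked by 1 list alone, epithelial markers and further weak peaks were chosen after their values were seen. Alternatives were a stricter threshold, equal numbers of peaks, other flanks, promoter windows, overlap rules and sequence backgrounds. A planned comparison of the proteins was not made. Some genes and a sequence that these rules would name are not reported here. Scripts ran under Python 3.11.15 with pandas 2.3.3, numpy 2.4.6, matplotlib 3.10.9 and scipy 1.17.1.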

Additional observations from a re-analysis of the deposited data

How the results depend on the processing

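No paired analysis was possible because each condition had 1 library. Counting only peaks with −log10 p of at least 10 left 38 TRPS1-WT and 69 TRPS1-MT peaks in the 6 loci, flanks of 20 kb left 30 and 72, and flanks of 100 kb gave 91 and 199. With as many TRPS1-MT peaks as the TRPS1-WT list holds, taken from the strongest, the TRPS1-MT count was 64 and the ratio of the 6 loci 1.07, and the ratio turned below 1 at GATA3 (0.636), GATA5 (0.714) and GATA6 (0.846). The stricter threshold turned it at GATA5 as well (0.714). Requiring summits within 100 bp made 5.0% of TRPS1-WT and 2.52% of TRPS1-MT peaks shared. With the canonical TSS only, 2 GATA genes in the TRPS1-WT and 3 in the TRPS1-MT library had a promoter peak. Windows of 50 bp on each side held a GATA sequence at 16.7% of TRPS1-WT and 19.3% of TRPS1-MT summits. Against windows 1000 bp away, in place of the whole list, the GATA share at summits was higher by 9.17 percentage points in the TRPS1-WT and 3.78 in the TRPS1-MT library, where it was lower against the list (−8.67 and −6.96). The causes were not tested. The rank of GATA2 among gene windows, added after the data were seen for the stricter threshold and for equal numbers of peaks, stood at 99.1% in the TRPS1-MT library under both. Summits of 9 or 10 tags are the weakest in the lists, so sites below that level were not detectable. Where the background was higher, more tags were needed. At GATA2 a TRPS1-MT summit of 13 tags over a background of 3.00 was above only 0.0789% of the list. Without a second library no difference can be assigned to the mutation.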
